A study of Zea mays with 68 samples.

Results

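The genes described here are the 200 maize genes whose transcript level varied least across 4 organs while staying well above the low range of the assay. They were selected on the measured values themselves. A gene had to reach 20 FPKM (fragments per kilobase of transcript, scaled to the mapped fragments of the library) in each of 11 RNA-seq libraries, which 4355 of the 109715 gene rows did, and the 200 with the lowest standard deviation (SD) of log2(FPKM + 1) over those libraries were taken. They make up 4.59% of the genes above that floor and are called stable genes below, as a name for the rule and not as a finding.

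All libraries came from B73, the inbred line behind the maize reference genome, and no group carried a treatment or a mutation. The organs were stem internode 6-7 (3 libraries), stem internode 7-8 (3 libraries), Vegetative Meristem & Surrounding Tissue (2 libraries, called meristem below) and mature female spikelets (3 libraries), the flower-bearing units of the ear. The labels list 68 samples of 23 tissues. Only the 11 value columns whose names could be tied to 1 tissue were used, where VMS and FS were taken to abbreviate the meristem and the female spikelets. Plant age and growth conditions were not among the labels used here. Whether libraries of an organ came from separate plants is not stated either, so each test is against a library spread that may be technical.

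A reference gene is a gene whose transcript is taken as a constant, so that other transcripts can be expressed relative to it, most often in quantitative PCR. Genes for actin, tubulin, elongation factor 1-alpha, glyceraldehyde-3-phosphate dehydrogenase and ubiquitin are the usual choices in plants, because every cell needs their products. A need for the product in every cell does not make the transcript a fixed share of the RNA pool, and cytoskeletal genes in particular belong to families whose members are used in different organs and at different stages of growth.

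The organ names could be read against known markers. The spikelet libraries held the floral MADS-box genes zag1, zag2, zmm2 and the gene named zmm6 and zmm7 at means of 71.3 to 369 FPKM, and the means of the other organs were each below 1 FPKM. The meristem held the YABBY gene yab14 at a mean of 40.6 FPKM, against 10.6 FPKM in spikelets and at most 0.28 FPKM in the internodes. The knotted1 gene kn1, a homeobox regulator of shoot meristems, was not a mark of the meristem libraries, since its mean was 138 FPKM there and 250 FPKM in internode 7-8. Of the internode markers, the secondary-wall cellulose synthase gene CesA12 was at only 4.65 and 3.44 FPKM in internodes 6-7 and 7-8. Depth in reads is unknown, and judged from the step between low values it ran from 0.398 to 1.23 times that of internode 6-7 library 2, with the 3 spikelet libraries at 0.398, 0.55 and 0.708.

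The stable genes spanned a narrow band of variation and a wide band of level. Their SD ran from 0.078 to 0.173 on the log2 scale with a median of 0.154, against a median of 0.385 for the other 4155 genes above the floor. The highest library stood 1.19 to 1.62 times above the lowest, with a median of 1.40, and this ratio stayed under 1.5 for 184 of the 200. All 200 stayed under 2, which 1358 of the other genes also did (32.7%). These are the values that the genes were chosen on. The last genes inside the limit were GRMZM5G882160, GRMZM2G108348 and GRMZM2G131321, each with an SD of 0.1725, and the first outside were GRMZM2G313649 at 0.1726, GRMZM2G111238 at 0.1729 and GRMZM2G138205 at 0.1729, so the limit falls within a continuum.

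Mean level ran from 23.1 to 3239 FPKM. The median was 47.8 FPKM, lower than the 72.2 FPKM of the other genes above the floor. By level, 104 stable genes lay between 20 and 50 FPKM, 51 between 50 and 100, 25 between 100 and 200 and 20 at 200 or more. The share of genes chosen fell with level, from 19.3% of the 161 genes with a mean under 30 FPKM to 2.14% of the 281 genes over 500 FPKM. A gene with a mean just above the floor can pass it in every library only if it varies little, so the first of these shares is partly set by the rule.

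**Figure D1:**
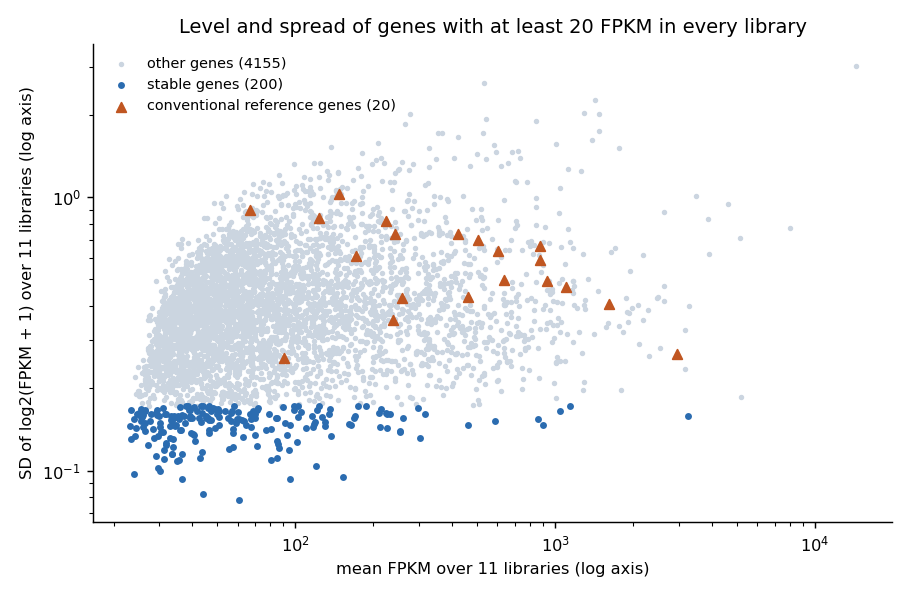
Each point is 1 gene with at least 20 FPKM in every library, by its mean FPKM over 11 libraries (horizontal, log axis) and the SD of its log2(FPKM + 1) over the same libraries (vertical, log axis). The 200 stable genes form the lower edge by construction, from an SD of 0.078 to 0.173, and none of the 20 conventional reference genes (triangles) lies among them.

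Among the genes with the smallest variation, the first was GRMZM2G385989. Its level was 63.7, 59.8 and 59.7 FPKM in internode 6-7, 64.0, 65.4 and 63.4 FPKM in internode 7-8, 61.5 and 58.9 FPKM in the meristem and 54.5, 58.2 and 57.6 FPKM in spikelets. The spikelet libraries were the lowest, and the whole set lay within a ratio of 1.20. The second, GRMZM2G151580, lay at 46.7, 43.8 and 42.4 FPKM in internode 6-7, at 46.5, 47.0 and 45.3 FPKM in internode 7-8, at 43.8 and 40.5 FPKM in the meristem and at 39.4, 45.7 and 43.8 FPKM in spikelets. Here the meristem lay below internode 7-8 and every other pair of organs overlapped. The third, GRMZM2G019084, lay at 34.7, 34.8 and 35.9 FPKM in internode 6-7, at 38.2, 37.1 and 37.0 FPKM in internode 7-8, at 39.0 and 40.8 FPKM in the meristem and at 38.4, 35.7 and 32.2 FPKM in spikelets, with its highest libraries in the meristem and its lowest in spikelets. The next 7 were GRMZM2G086801, GRMZM5G827622, GRMZM2G071518, GRMZM2G044569, GRMZM2G047365, GRMZM2G012037 and GRMZM5G813470, with SDs between 0.093 and 0.109 and ratios of highest to lowest library between 1.23 and 1.27. None of these 10 carries a gene name in the annotation used, and nothing is said here of what they encode.

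Abundant transcripts were few. GRMZM5G877019 had the highest level, at 2894, 3290 and 3391 FPKM in internode 6-7, 3337, 3402 and 3310 FPKM in internode 7-8, 3426 and 3594 FPKM in the meristem and 3042, 3499 and 2447 FPKM in spikelets. Its lowest value came from spikelet library 3 and its highest from a meristem library. GRMZM2G108348 and GRMZM2G027451 followed with means of 1145 and 1045 FPKM. For GRMZM2G027451 the 4 organ means lay between 1027 and 1058 FPKM, while libraries within an organ differed by as much as 923 against 1224 FPKM in internode 7-8, so that nearly all of its variation lay between libraries of the same organ.

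A gene name was available for 11 of the stable genes. The annotation table matched 163 of the 200, mostly to entries without a name, so that most stable genes cannot be assigned a function here. Protein kinase CK2, SnRK2 and PP2C signalling, translation initiation, nascent-chain handling, the proteasome and ATP synthesis are represented among the 11. In each of these classes except the proteasome, relatives of the stable gene were examined as well. The test was a moderated F-test over the 4 organs (limma on log2(FPKM + 1), Benjamini-Hochberg adjustment over 29827 genes). By that test 68.0% of the genes tested differed between organs at an adjusted p under 0.05, and 59.0% of the genes above the floor did. With organ means at least 1 apart on the log2 scale as well, the shares were 52.9% and 30.0%. The same fit called 1 of the 200 stable genes, or 0 with organ means at least 1 apart, and 3 of them had an unadjusted p under 0.05. With libraries scaled by the median of ratios over all genes it called 65. Because the genes were selected for low variation over the same libraries, the counts on the deposited scale say nothing beyond the rule. The count of 65 belongs to a scale that the rule did not use. It shows that the levelness of these genes depends in part on how libraries are scaled. With that scaling the count over all genes kept within 1.5 times its value as deposited.

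Protein kinase CK2 is a tetramer of catalytic alpha and regulatory beta subunits that phosphorylates a broad range of proteins, and in rice the alpha-subunit gene Hd6 affects flowering time. The stable genes held the regulatory-subunit gene ckb1 and the gene named HD6. ckb1 lay at 26.1, 22.3 and 21.2 FPKM in internode 6-7, 23.0, 24.8 and 23.6 FPKM in internode 7-8, 27.4 and 26.9 FPKM in the meristem and 27.5, 28.7 and 29.5 FPKM in spikelets. All internode libraries were below all meristem and spikelet libraries, by a small margin. HD6 lay at 42.9, 47.8 and 41.3 FPKM in internode 6-7, 52.4, 47.3 and 41.2 FPKM in internode 7-8, 45.3 and 52.0 FPKM in the meristem and 35.2, 38.5 and 43.4 FPKM in spikelets. Its spikelet libraries were low but overlapped with the internodes. The third CK2 gene tested, cka2, an alpha-subunit gene, ranked 828 and fell outside the 200, with organ means of 62.6, 63.4, 54.7 and 44.7 FPKM in internode 6-7, internode 7-8, meristem and spikelets. It changed between organs (range of organ means 0.51 on the log2 scale, limma adjusted p = 0.0239).

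SnRK2 kinases act in osmotic stress and abscisic acid signalling, and type 2C protein phosphatases (PP2C) are a large family, of which one group holds SnRK2 kinases inactive until abscisic acid is sensed. SnRK2.8 lay at 66.8, 52.9 and 55.0 FPKM in internode 6-7, 62.4, 55.9 and 64.7 FPKM in internode 7-8, 56.9 and 53.4 FPKM in the meristem and 54.2, 52.3 and 60.6 FPKM in spikelets. Every organ overlapped with every other. Of the 7 SnRK2 genes tested, 5 changed between organs, 4 of them with organ means at least 1 apart. Among all genes tested the shares were 68.0% and 52.9%, so these counts do not set the family apart. The widest was SnRK2.11, with means of 36.8, 33.9, 6.43 and 16.2 FPKM in the order internode 6-7, internode 7-8, meristem and spikelets (range 2.38, limma adjusted p = 3.3e-05). SnRK2.6 was lowest in the internodes instead, at 10.2 and 11.2 FPKM, with 19.8 FPKM in the meristem and 29.4 FPKM in spikelets (range 1.44, limma adjusted p = 8.2e-05). Both genes were higher in spikelets than in the meristem.

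PP2C18 lay at 34.5, 35.0 and 33.3 FPKM in internode 6-7, 34.9, 38.4 and 33.2 FPKM in internode 7-8, 31.1 and 30.0 FPKM in the meristem and 29.3, 36.5 and 32.4 FPKM in spikelets. Its meristem libraries were low and its spikelet libraries covered nearly the whole range. Of the 24 PP2C genes tested, 15 changed between organs and 12 of these had organ means at least 1 apart. Beside 68.0% and 52.9% of all genes tested, these counts do not set the family apart either. PP2C24 fell from 48.7 FPKM in the meristem to 9.96 FPKM in spikelets (range 2.20, limma adjusted p = 1.4e-05). PP2C2 had a mean of 72.1 FPKM in spikelets and means between 16.0 and 18.1 FPKM in the other 3 organs (range 2.34, limma adjusted p = 0.0062). Its internode libraries differed widely, at 30.8, 8.6 and 8.6 FPKM in internode 6-7 and 14.6, 8.4 and 31.2 FPKM in internode 7-8.

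Translation initiation in plants uses a second cap-binding complex beside eIF4F, and eIFiso-4E is its cap-binding subunit, while eIF-4A is the RNA helicase that unwinds the 5′ leader. eIFiso-4E lay at 69.5, 81.2 and 80.7 FPKM in internode 6-7, 84.7, 90.2 and 88.9 FPKM in internode 7-8, 88.8 and 88.4 FPKM in the meristem and 87.9, 97.9 and 82.4 FPKM in spikelets. All 3 libraries of internode 6-7 were below all others. The eIF-4A gene tif4A2 lay at 265.8, 270.5 and 276.2 FPKM in internode 6-7, 390.3, 271.8 and 314.6 FPKM in internode 7-8, 299.1 and 296.8 FPKM in the meristem and 273.5, 329.7 and 269.2 FPKM in spikelets. Library 2 of internode 7-8 stood apart at the top, and the other 10 libraries lay between 265.8 and 329.7 FPKM. Of the 9 initiation factor genes tested, 7 changed between organs, beside 68.0% of all genes tested. With organ means at least 1 apart there were 2, beside 52.9%. These were GOS2, whose rice counterpart encodes an eIF1 homologue, at 722 FPKM in spikelets and 323 to 391 FPKM elsewhere (range 1.12, limma adjusted p = 0.0087), and eIF3A, at 68.0 FPKM in internode 6-7 and 33.6 FPKM in spikelets (range 1.09, limma adjusted p = 0.0246). The eIF4E gene, which encodes the cap-binding subunit of eIF4F, had organ means of 96.9, 112, 144 and 170 FPKM (range 0.77, limma adjusted p = 0.0146), beside 77.1, 87.9, 88.6 and 89.4 FPKM for eIFiso-4E.

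BTF3 is the beta subunit of the nascent polypeptide-associated complex, which binds chains as they leave the ribosome. The stable gene of that name lay at 115.9, 125.8 and 128.2 FPKM in internode 6-7, 135.3, 149.3 and 129.1 FPKM in internode 7-8, 153.7 and 142.6 FPKM in the meristem and 142.6, 155.2 and 128.7 FPKM in spikelets. Internode 6-7 was again the lowest organ, by less than 1 FPKM at the nearest library. A second gene named btf3 or BTF3b was lowest in spikelets instead, with organ means of 123, 124, 107 and 82.4 FPKM (range 0.59, limma adjusted p = 0.0159). Of the 32 ribosomal protein genes above the floor, 0 were among the stable genes, beside 4.59% of all genes above the floor, so the count does not set them apart. The nearest of them, GRMZM2G035017, is 1 of a pair of genes named rps4 and stood at rank 361, with organ means of 532, 556, 451 and 433 FPKM (range 0.37, limma adjusted p = 0.115). The other rps4 gene, GRMZM2G125271, changed between organs, with means of 749, 769, 731 and 469 FPKM (range 0.73, limma adjusted p = 0.0117). Of all 37 ribosomal protein genes tested, 8 changed between organs, beside 68.0% of all genes tested. The summed level of the 37 ran from 9523 FPKM in spikelet library 3 to 15058 FPKM in internode 7-8 library 3.

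PAD1 takes its name from an alpha subunit gene of the 20S proteasome in Arabidopsis. It lay at 150.4, 167.1 and 152.6 FPKM in internode 6-7, 166.8, 173.3 and 189.6 FPKM in internode 7-8, 160.4 and 150.0 FPKM in the meristem and 161.9, 192.9 and 209.8 FPKM in spikelets. Spikelet libraries 2 and 3 were the highest, and the meristem lay below internode 7-8 and spikelets. The ATP synthase gene atp3 lay at 110.1, 124.6 and 119.2 FPKM in internode 6-7, 112.6, 136.0 and 135.4 FPKM in internode 7-8, 105.1 and 95.5 FPKM in the meristem and 118.3, 119.7 and 102.5 FPKM in spikelets, with meristem library 2 the lowest. Of the 6 ATP synthase and adenine nucleotide carrier genes tested, 1 changed between organs, beside 68.0% of all genes tested. This was the gene named atp1 or ATPase1, with organ means of 202, 155, 97.8 and 250 FPKM (range 1.34, limma adjusted p = 3.4e-04). The carrier gene ANT1, which exchanges ADP and ATP across the inner mitochondrial membrane, had organ means of 984, 984, 792 and 1197 FPKM and did not pass the test (range 0.60, limma adjusted p = 0.071).

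PHD2 carries a PHD finger, a zinc-binding fold found in proteins that read histone tails. It lay at 39.9, 39.5 and 34.2 FPKM in internode 6-7, 37.8, 43.8 and 43.4 FPKM in internode 7-8, 43.5 and 40.0 FPKM in the meristem and 43.5, 54.8 and 41.7 FPKM in spikelets. Spikelet library 2 alone exceeded 44 FPKM. Of the 7 PHD finger genes tested, 4 changed between organs, beside 68.0% of all genes tested. Among the 4, PHD33 reached 122 FPKM in the meristem against 31.5 to 35.3 FPKM elsewhere (range 1.95, limma adjusted p = 3.8e-04). The last named gene was akr1, at 61.3, 60.9 and 60.2 FPKM in internode 6-7, 57.2, 56.5 and 53.5 FPKM in internode 7-8, 45.0 and 48.5 FPKM in the meristem and 65.1, 57.4 and 56.7 FPKM in spikelets. Both meristem libraries were below all others. Histone genes, whose products package DNA, had no member among the stable genes, with 8 of them above the floor. The stable genes are 4.59% of all genes above the floor, so that count does not set histone genes apart. Of 11 histone genes tested 3 changed between organs, beside 68.0% of all genes tested.

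**Figure D2:**
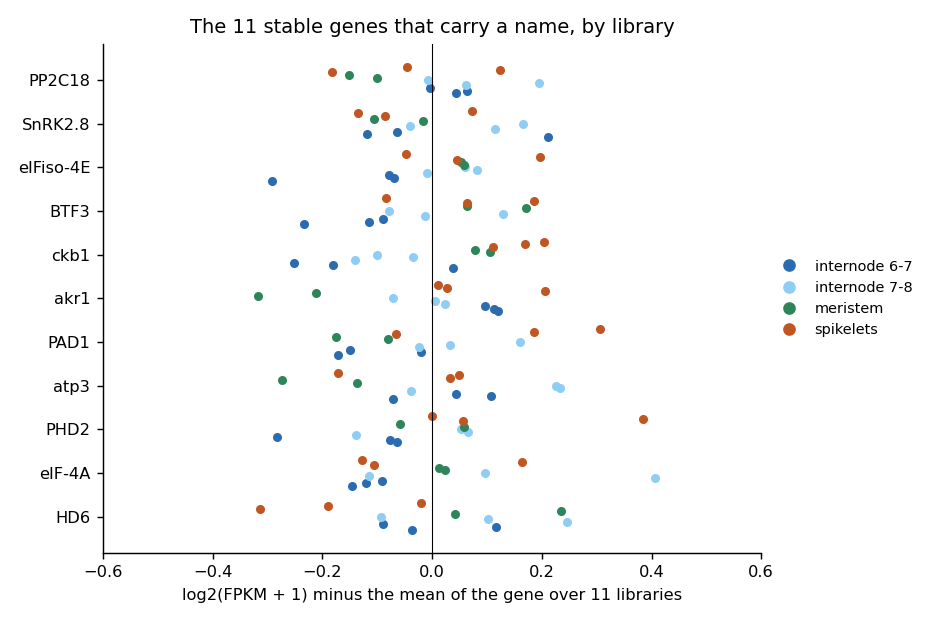
Each row is 1 of the 11 named stable genes and each point 1 library, placed by its log2(FPKM + 1) minus the mean of the gene over the 11 libraries, with colours for the 4 organs. All points lie within 0.6 of the mean, with the meristem libraries of akr1 and the internode 6-7 libraries of eIFiso-4E and BTF3 at the low end of their rows and internode 7-8 library 2 at the high end for eIF-4A.

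Choosing genes with a low SD over all libraries also removes genes that differ between organs, so the following describes the stable genes and is no test. The pooled SD between libraries of an organ had a median of 0.126 over the stable genes and the SD of the 4 organ means a median of 0.113. For a typical stable gene the latter was 0.874 times the former, whereas for the other genes above the floor it was 1.54 times. Each organ mean averages 2 or 3 libraries, so organ means vary less than single libraries even without an organ difference. A ratio under 1 therefore does not show that organs differ less than libraries of an organ. The difference between the highest and lowest organ mean had a median of 0.25 and reached 0.45. The gene at that end, GRMZM2G040164, lay at 131.9, 128.6 and 124.5 FPKM in internode 6-7, 133.7, 139.1 and 138.7 FPKM in internode 7-8, 108.8 and 118.6 FPKM in the meristem and 149.8, 161.5 and 156.1 FPKM in spikelets. Its 4 organs did not overlap, and it was the 1 gene that the F-test called. GRMZM2G049495 and GRMZM2G146173 followed, with means rising from 21.1 and 207 FPKM in internode 6-7 to 28.5 and 271 FPKM in the meristem.

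The organ with the highest mean was internode 7-8 for 78 stable genes (39%), the meristem for 46, spikelets for 41 and internode 6-7 for 35. Internode 7-8 was rarely the lowest organ, with 15 genes, against 58 to 65 for each of the other 3. Among the other genes above the floor internode 7-8 was highest for 14.5% and lowest for 7.53%. As single libraries, internode 7-8 library 3 held the highest value of 37 stable genes and the lowest of 2, and spikelet library 3 held the lowest value of 43 and the highest of 10. The mean log2 deviation of the stable genes in these libraries was 0.09 and -0.06, so each library also shifted them together by a small amount.

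As a test on values that the choice had not used, 200 genes were chosen by the same rule on 10 libraries and then read in the library left out. The rest of its organ stayed among the 10, so this does not test an organ that the choice had not seen. Their median absolute log2 difference from the mean of the other 10 ranged from 0.11 in internode 6-7 library 4 to 0.21 in spikelet library 3, with a mean of 0.153 ± 0.026 (SD over 11 libraries). For all genes above the floor in the other 10 libraries the median ranged from 0.22 to 0.42, with a mean of 0.303 ± 0.072. The chosen genes were nearer to the rest in each of the 11 libraries. All 200 lay within a factor of 2 of the rest in 10 of the libraries, and 197 did in spikelet library 3. Between 149 and 183 of each set were among the 200 stable genes.

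A whole organ left out was a harder case. Genes chosen on the other 3 organs differed from them by a median of 0.17 in internode 6-7, where all genes above the floor differed by 0.30, and by 0.12 against 0.20 in internode 7-8. In these cases the neighbouring internode stayed among the libraries that chose the genes. In the meristem the chosen genes differed by 0.30 against 0.38 for all, and in spikelets by 0.37 against 0.49. There, 191 and 182 of the 200 stayed within a factor of 2, and 38 of the genes chosen without spikelets had at least 1 spikelet library below 20 FPKM. The farthest, GRMZM2G084993, lay between 30.2 and 38.1 FPKM in the 8 other libraries and at 5.0, 6.8 and 6.4 FPKM in spikelets. GRMZM2G024484, chosen without the meristem, lay between 105.8 and 133.2 FPKM in the other organs and at 44.4 and 51.8 FPKM there. Of the genes chosen without the meristem 93 were also among the 200 stable genes, and of those chosen without spikelets 60 were.

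**Figure D3:**
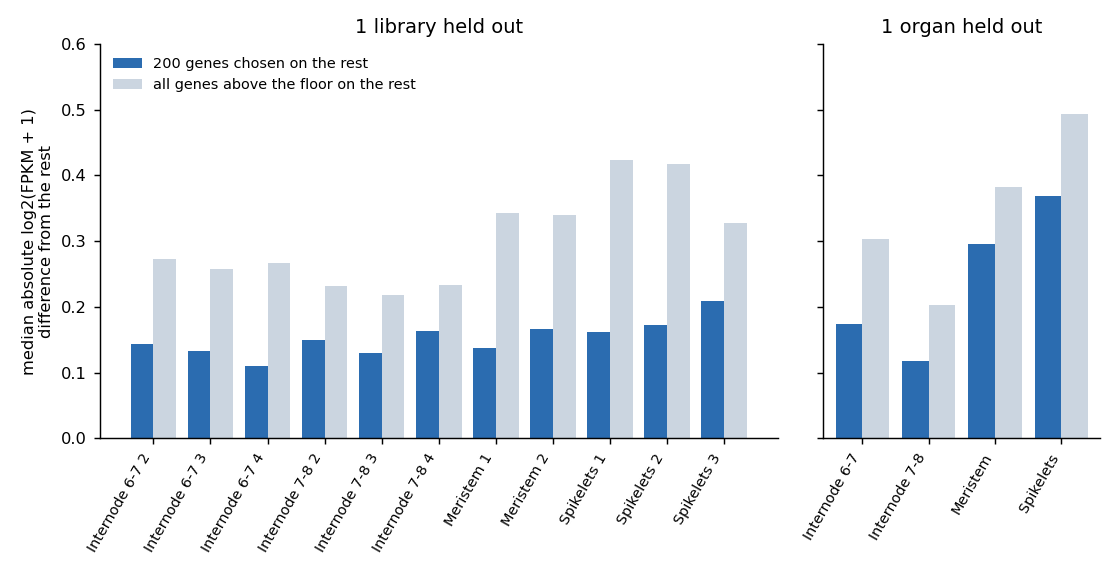
Bars give the median absolute difference in log2(FPKM + 1) between a held-out library (left) or organ mean (right) and the rest, for the 200 genes chosen on the rest (blue) and for all genes above the floor on the rest (grey). The blue bar is lower in every case, from 0.11 to 0.21 for single libraries, and rises to 0.30 for the meristem and 0.37 for spikelets when the whole organ is left out.

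The usual reference genes mostly differed between organs. Of 30 such genes tested, 20 passed the floor of 20 FPKM in every library, and of these 18 changed between organs and 15 also had organ means at least 1 apart, beside 59.0% and 30.0% of all genes above the floor. None of the 20 was among the stable genes, which are 4.59% of the genes above the floor, so that count alone does not set them apart. The families are those used in qPCR practice, but the list was written with earlier results of these data known, so its count is not independent of them. Of the 20, 16 had their lowest organ mean in the meristem, 3 in spikelets and 1 in internode 6-7. Among all genes above the floor these organs were the lowest for 29.0%, 33.8% and 29.7%. With libraries scaled by the median of ratios, described below, the meristem was the lowest for 18, and the share of all genes on that scale was not computed. In bulk tissue, less RNA of a gene per cell and fewer cells that express it cannot be told apart.

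Actin genes build microfilaments and are the most cited choice. The actin gene Maz83 lay at 559, 589 and 550 FPKM in internode 6-7, 566, 564 and 679 FPKM in internode 7-8, 190 and 193 FPKM in the meristem and 220, 259 and 285 FPKM in spikelets. The meristem and spikelets were both below the internodes with no overlap (range 1.64, limma adjusted p = 2.5e-05). An Actin-7 gene, GRMZM2G067985, had the highest mean and the lowest SD of the family, at 999, 960 and 967 FPKM in internode 6-7, 976, 843 and 1081 FPKM in internode 7-8, 511 and 427 FPKM in the meristem and 1209, 1268 and 1036 FPKM in spikelets. It was low in the meristem alone (range 1.32, limma adjusted p = 5.9e-04) and ranked 3159 of 4355.

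Tubulins form microtubules, and the alpha-tubulin gene tua4 was the most level of the abundant reference genes. It lay at 3216, 3061 and 3061 FPKM in internode 6-7, 3338, 2483 and 3703 FPKM in internode 7-8, 1994 and 2258 FPKM in the meristem and 3223, 3109 and 2809 FPKM in spikelets, and ranked 994. The meristem was lowest without overlap, but the organ difference did not pass the test (range 0.56, limma adjusted p = 0.0987). Of the beta-tubulin genes above the floor, tub5 (also named tub8) had the highest mean, 636 FPKM, and the lowest SD, 0.498. The beta-tubulin gene tub3 was the most variable of the 20, at 193, 208 and 214 FPKM in internode 6-7, 124, 133 and 169 FPKM in internode 7-8, 34.4 and 26.8 FPKM in the meristem and 188, 170 and 165 FPKM in spikelets (range 2.72, limma adjusted p = 4.4e-06). Below the floor, tub4 ranged from 2.2 FPKM in meristem library 2 to 178 FPKM in internode 6-7 library 4, a ratio of 79.6.

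Elongation factor 1-alpha delivers aminoacyl-tRNA to the ribosome. Of its 4 genes, EF1A had the highest mean, at 1317, 1363, 605 and 968 FPKM in internode 6-7, internode 7-8, meristem and spikelets (range 1.17, limma adjusted p = 9.5e-04), and elfa2 the lowest SD, at 281, 275, 154 and 211 FPKM (range 0.86, limma adjusted p = 0.0022). All 4 were lowest in the meristem. Glyceraldehyde-3-phosphate dehydrogenase is a glycolytic enzyme, and its most abundant gene GAPC1 lay at 696, 722, 420 and 1499 FPKM (range 1.83, limma adjusted p = 4.4e-05). The gene named GAPCP, which in Arabidopsis denotes a plastid form, ranked best of the 20 at 920. GAPCP lay at 98.6, 82.1 and 88.6 FPKM in internode 6-7, 110.0, 108.1 and 100.4 FPKM in internode 7-8, 78.6 and 88.6 FPKM in the meristem and 63.2, 71.5 and 106.3 FPKM in spikelets, and its organ difference did not pass the test (range 0.43, limma adjusted p = 0.208).

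The ubiquitin gene GRMZM2G409726 was the only gene of its family above the floor, with organ means of 386, 586, 456 and 932 FPKM (range 1.29, limma adjusted p = 0.0182). Libraries of internode 7-8 differed widely for it, at 706, 317 and 735 FPKM. The reads of ubiquitin, actin and tubulin genes may be shared among near-identical copies, so single genes of these families are uncertain. Neither Cullin-1 nor Cullin-4 passed the floor. Cullin-1 lay at 31.4, 19.8 and 22.5 FPKM in internode 6-7, 27.8, 23.4 and 25.9 FPKM in internode 7-8, 12.4 and 16.0 FPKM in the meristem and 17.4, 13.7 and 22.7 FPKM in spikelets.

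A set of reference genes gives each library a factor, the mean log2 level of the set in that library relative to its mean over libraries, by which all other genes are divided. The 200 stable genes gave factors between -0.06 and 0.09, which the rule keeps near 0. Sets of 200 chosen without the library that they scale gave shifts from -0.13 in spikelet library 3 to 0.12 in internode 7-8 library 3. Other libraries of the same organ stayed in that choice. Chosen without a whole organ, sets of 200 gave mean shifts of -0.07 (internode 6-7), 0.08 (internode 7-8), -0.21 (meristem) and -0.09 (spikelets). These shifts are measured from the mean of the other 10 libraries or of the other 3 organs. The factors are measured from the mean over all libraries, so shifts and factors are not on the same measure. The 20 conventional genes gave mean factors of 0.37 (internode 6-7), 0.21 (internode 7-8), -0.75 (meristem) and -0.08 (spikelets), a spread of 1.18 between the lowest and highest library. The median of ratios, which scales each library by its typical gene over 27016 genes above 0 in all libraries, gave 0.09, 0.03, 0.22 and -0.23 in the same order. For the meristem it therefore moved opposite to the conventional genes.

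**Figure D4:**
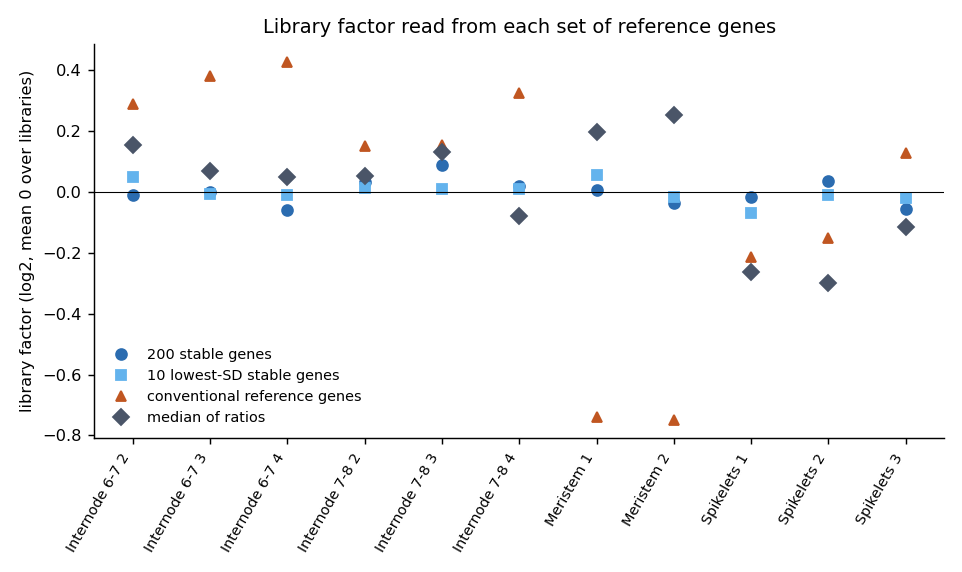
Points give the log2 factor of each of 11 libraries read from the 200 stable genes, the 10 of them with the lowest SD, the 20 conventional reference genes and the median of ratios over all genes above 0. The stable genes stay within 0.09 of 0 in every library, while the conventional genes fall to -0.75 in the meristem and the median of ratios to -0.30 in spikelet library 2.

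The 4 marker genes above the floor show the size of these factors on a target gene. As deposited, kn1 was 0.82 lower in the meristem than in internode 7-8 on the log2 scale (SD between libraries 0.38). Relative to the stable genes it was 0.76 lower, relative to the median of ratios 1.01 lower, and relative to the conventional genes 0.13 higher, which is less than the SD between libraries of 0.36. The cellulose synthase gene cesa10 was 0.49 lower in the meristem than in internode 6-7 as deposited and 0.50 lower relative to the stable genes, but 0.60 higher relative to the conventional genes (SD between libraries 0.14 to 0.23). For the gene Cab-m7, which encodes a light-harvesting chlorophyll protein, the difference between meristem and internode 6-7 stayed below 0 throughout, at -3.89 as deposited, -3.90 relative to the stable genes, -2.80 relative to the conventional genes and -4.02 relative to the median of ratios. For the homeobox gene lg3 it was 0.06, 0.06, 1.15 and -0.07 in the same order. A factor moves all genes of a library alike, so these values follow from the factors above, and a difference smaller than the gap between 2 factors can change sign.

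The rule keeps the factors of the stable genes near 0, so scaling by them could change the deposited values only a little. What follows is a description and no test of them. Scaling by the stable genes did not bring replicate libraries closer together. Over 19292 genes that belonged to neither set and reached 1 FPKM in every library, the median SD between libraries of an organ was 0.270 as deposited, 0.273 after scaling by the 200 stable genes, 0.271 after scaling by the 10 with the lowest SD and 0.267 after the median of ratios. Scaling by the conventional genes gave 0.286. The stable genes also left the typical gene where the deposited scale had it. The median gene of the 19292 was 0.30 lower in spikelets than in the other organs as deposited. It was 0.29 lower after scaling by the stable genes and 0.00 different after the median of ratios. The median of ratios scales each library by its typical gene, so a value near 0 follows from that method and is no test of it. In the meristem the median difference from the other organs was 0.19 as deposited, 0.20 after the stable genes and -0.05 after the median of ratios. Taken over the genes above the floor alone, the median-of-ratios factor of spikelets was -0.007, against -0.23 over all genes above 0. In the spikelet libraries the most abundant gene alone held 2.47% to 5.69% of the summed FPKM, against 0.52% to 1.05% in the others, and the part this plays in the shift was not tested.

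Which genes counted as stable depended on the rule. A pseudocount of 0.1 kept 198 of the 200, ranking by the pairwise measure of the geNorm method (the mean SD of a gene's log2 ratio to every other gene above the floor, which no scaling of libraries can alter) kept 170, and ranking by the range over libraries kept 161. A floor of 50 FPKM kept 81, the SD over 4 organ means kept 96, and scaling by the median of ratios over all genes kept 52. When the ratios were taken over the genes above the floor alone, 176 were kept. By the geNorm measure the median was 0.456 for the stable genes and 0.570 for all genes above the floor.

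**Figure D5:**
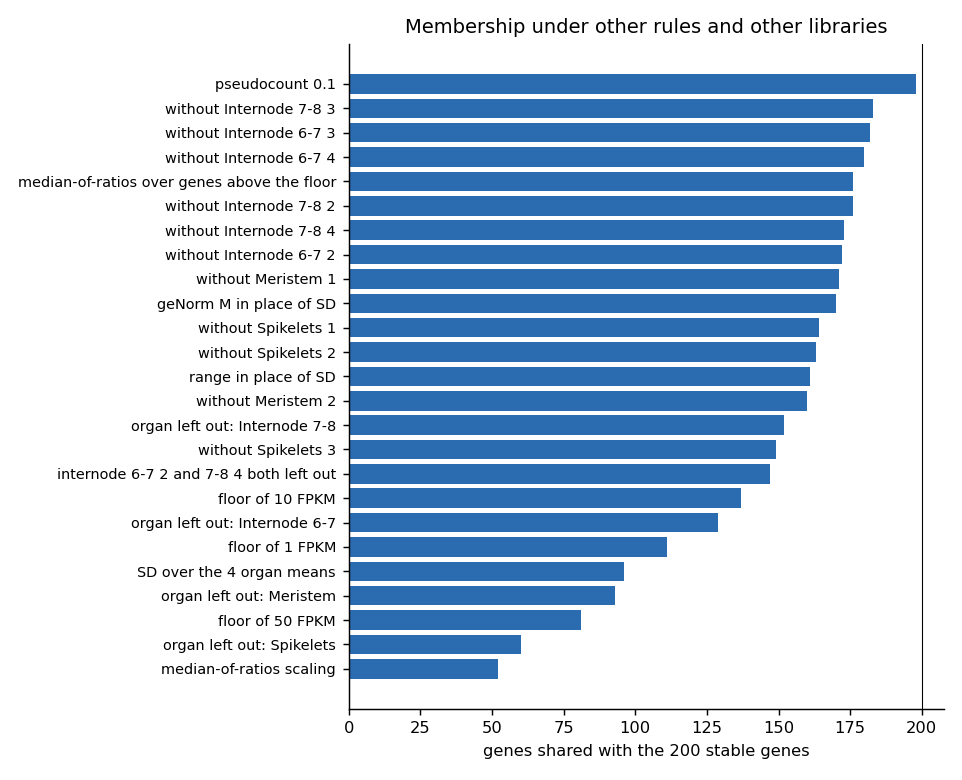
Bars give how many of the 200 stable genes were chosen again when 1 part of the rule was changed, or when a library or an organ was left out, for 25 such settings. The counts run from 198 with another pseudocount to 52 with median-of-ratios scaling, and leaving out a single library kept 149 to 183.

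Just 5 stable genes were chosen under all 25 of these settings, namely GRMZM2G385989, GRMZM5G827622, GRMZM2G012037, GRMZM2G092975 and GRMZM2G167872. All 5 had means between 60.6 and 152 FPKM, high enough to pass the floor of 50 FPKM in each library. GRMZM5G827622 lay at 155.3, 159.2 and 156.6 FPKM in internode 6-7, 153.3, 150.1 and 172.5 FPKM in internode 7-8, 140.6 and 159.3 FPKM in the meristem and 139.6, 148.6 and 139.1 FPKM in spikelets. GRMZM2G012037 lay at 109.5, 127.8 and 118.8 FPKM in internode 6-7, 106.5, 127.4 and 113.6 FPKM in internode 7-8, 128.4 and 132.4 FPKM in the meristem and 120.0, 113.8 and 126.7 FPKM in spikelets. The spikelets of GRMZM5G827622 lay below both internodes, and the meristem of GRMZM2G012037 lay just above every other organ. In both genes the pooled SD between libraries of an organ, 0.081 and 0.101 on the log2 scale, was larger than the SD of the organ means, 0.070 and 0.075. Organ means average several libraries and vary less for that reason alone, so this does not show the absence of an organ difference. GRMZM2G092975 kept between 72.8 and 94.5 FPKM and GRMZM2G167872 between 86.3 and 117.6 FPKM over the 11 libraries.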

How the data were processed

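RNA-seq libraries were made from polyA-selected RNA by a strand-keeping protocol, per the labels' protocols. Per the submitters' processing notes, Bowtie2 2.1.0, TopHat2 2.0.8b and Cufflinks 2.1.1 were used. Build and settings were not among the sources here, nor whether counting used strand, so overlapping genes are uncertain. The authors deposited FPKM per gene for 109715 rows, and 6 rows lacking a used value were dropped. The remaining 57 value columns have codes without a key and entered no step. Internode columns are numbered differently from the sample titles, and libraries go by the column number.

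The members and lists were chosen with earlier results of these data known. Gene names are those of RefSeq for Zm-B73-REFERENCE-NAM-5.0, whose table has no descriptions, so lists were patterns on symbols. Genes named were the 10 stable genes with the lowest SD, the 10 with a name and the lowest SD, the 3 most abundant, the 3 with the largest organ range, 3 on each side of the limit, and per conventional family the highest mean and lowest SD above the floor. HD6, relatives of named genes, genes in every setting or farthest when held out, Maz83, tub3, tub4 and the cullins were added with their values seen.

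Organ differences were tested by limma 3.58.1 in R 4.3.3 (moderated F-test with trend) on log2(FPKM + 1), which understates changes of low genes, for 29827 genes reaching 1 FPKM in 2 or more libraries, adjusted by Benjamini-Hochberg. The fit was tested on simulated data, and other values were computed with Python 3.11.15. Same-numbered libraries of the 2 internodes had deviations correlated at -0.12, 0.20 and -0.11 over the genes tested. Over the genes above the floor the correlations were -0.12, 0.57 and -0.30. Their signs differ between pairs, so numbers were not taken to pair libraries. No columns were identical.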

Additional observations from a re-analysis of the deposited data

How the results depend on the processing

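Of the 200 stable genes, 52 were chosen again with median-of-ratios scaling, 81 with a floor of 50 FPKM, 111 with a floor of 1 FPKM, 96 with the SD over organ means, 129 without internode 6-7, 93 without the meristem and 60 without spikelets. The stable genes called different between organs numbered 1 as reported, 65 with median-of-ratios scaling, 2 with ratios over genes above the floor, 2 with a pseudocount of 0.1, 5 without a filter, 0 without the trend and 0 without internode 6-7 library 2 and internode 7-8 library 4 together. Leaving out 1 library gave 0 to 7, the 7 without spikelet library 3; each count comes from fewer libraries. The last pair of libraries, which deviate together from their organs (correlation 0.26, or 0.53 over genes above the floor), and the ratios over genes above the floor were added after the data were seen. With the column number as a replicate block, 0 stable genes, 14 of 20 conventional genes and 15921 of all genes were called, against 1, 18 and 20293, though the correlations give no ground for such a pairing. The held-out deviation for single libraries was 0.182 with median-of-ratios scaling against 0.153, and the replicate spread of other genes, 0.273, ranged from 0.231 (without spikelet library 3) to 0.287 (without internode 6-7 library 4) with 1 library left out. The cause of these shifts was not tested. The other values for counts over all genes, conventional genes and held-out organs kept within 1.5 times or 1 SD. Depth in reads is unknown, so counting error cannot be given.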
